A study of Mus musculus with 2 samples.

Results

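The HoxD cluster was described from the accessible sites that DNase-seq placed in and around its 9 Hox genes, out of 21938 protein-coding genes annotated on the assembled chromosomes. In genomic order of their first annotated starts these are Hoxd13, Hoxd12, Hoxd11, Hoxd10, Hoxd9, Hoxd8, Hoxd3, Hoxd4 and Hoxd1. Hoxd3 precedes Hoxd4 by its first start only. The annotated body of Hoxd4 ends at 74729160, before the later Hoxd3 starts at 74736515 and 74739619. All members lie on the plus strand of mouse chromosome 2. Together they have 14 distinct transcription start sites (TSSs) in the basic set of GENCODE M21. The members are the Hox genes of the cluster, taken by name and not by a threshold on a measured value. The places examined were the 1 kb on either side of each TSS, the 94.7 kb between the outermost start sites (chr2:74668310-74762980, mm10), called the interior here, and the 100 kb beyond each end. The tissue was whole hindbrain of B6NCrl mouse embryos at embryonic day 14.5, with males and females pooled and no treatment. There was 1 group of 2 biological replicates, each a separate tissue sample with its own library, and the labels attach the same donor entry to both, so the spread between them may be technical. DNase-seq cuts open chromatin with the nuclease DNase I, and for each library the authors deposited 150 bp peaks with a score and wider hotspots of enriched cutting with a −log10 q-value. A peak or hotspot is called shared when at least 1 bp of it overlaps one of the other library, with counts over positions of replicate 1 unless replicate 2 is named.

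Hox genes encode homeodomain transcription factors that give cells their position along the head-to-tail axis. Their order on the chromosome parallels the order in which they are used along that axis, so that low-numbered genes at the Hoxd1 end are used farthest forward, into the hindbrain, and high-numbered genes at the Hoxd13 end farthest back, in the caudal trunk, the genitalia and the limbs. Between Hox genes lie binding sites of CTCF, a zinc finger protein that stops the growth of chromatin loops, and so anchors them, and separates chromatin domains.

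The peak list of replicate 1 was 1.77 times as long as that of replicate 2, with 263679 and 148804 peaks, and the sequencing depth behind either is unknown because the lists carry no counts of reads. The score counts nothing that the sources used here define, so it is given beside its percentile, the percentage of peaks in the same library with a lower score. Of 12 hindbrain marker genes 11 had a shared promoter peak (Hoxa3 did not), against 3 of 6 forebrain markers and 6 of 8 markers of limb, meningeal and somite mesenchyme. Over all protein-coding genes the share was 64.6%. A promoter peak alone therefore did not separate the tissues. Per library the counts were 11 and 11 for hindbrain, 4 and 4 for forebrain, and 6 and 7 for mesenchyme, replicate 1 first, and the part that other cell types play in the HoxD results was not tested. In bulk tissue, a site that is open in few cells cannot be told apart from one that is weakly open in many.

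The sequences below belong to the sites on which the description turns, read on the plus strand of mm10, 5′ to 3′. The first set is the shared peak in each of 4 stretches from Hoxd13 to Hoxd4, shown because these peaks stood more than 1 kb from all member start sites and ranked high in both libraries. Capitals mark matches to the core of the CTCF motif, spelled CCANNAGNNGGC and searched on both strands, with at most 1 of its 8 fixed letters changed.
Between Hoxd13 and Hoxd12 (chr2:74673076-74673225): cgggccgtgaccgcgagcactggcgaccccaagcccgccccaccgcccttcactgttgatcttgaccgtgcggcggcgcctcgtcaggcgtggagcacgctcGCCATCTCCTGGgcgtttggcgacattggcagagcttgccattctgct
Between Hoxd11 and Hoxd10 (chr2:74686396-74686545): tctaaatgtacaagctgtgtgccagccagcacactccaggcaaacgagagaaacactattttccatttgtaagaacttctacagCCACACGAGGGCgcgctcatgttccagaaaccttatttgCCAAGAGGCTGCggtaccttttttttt
Between Hoxd9 and Hoxd8 (chr2:74702316-74702465): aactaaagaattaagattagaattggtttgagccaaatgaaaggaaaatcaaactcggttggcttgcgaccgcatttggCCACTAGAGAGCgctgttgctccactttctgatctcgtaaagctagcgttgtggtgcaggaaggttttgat
Between the first Hoxd3 and the first Hoxd4 start (chr2:74715896-74716045): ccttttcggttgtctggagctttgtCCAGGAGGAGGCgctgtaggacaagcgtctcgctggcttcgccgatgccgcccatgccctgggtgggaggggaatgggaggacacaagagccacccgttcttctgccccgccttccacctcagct
Next comes a shared peak in a Hoxd3 intron with 2 overlapping matches, one on each strand, to the HOX-PBX motif TGATNNAT, which Hox proteins bind together with their PBX partners. Capitals mark the joined matches.
Hoxd3 intron (chr2:74734536-74734685): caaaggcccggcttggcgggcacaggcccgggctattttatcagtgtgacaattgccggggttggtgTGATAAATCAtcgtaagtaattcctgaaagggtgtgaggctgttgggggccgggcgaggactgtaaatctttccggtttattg
The peak with the highest score of the interior in replicate 1 lies in an exon of the non-coding gene Haglr and has no capitals.
Haglr exon (chr2:74749916-74750065): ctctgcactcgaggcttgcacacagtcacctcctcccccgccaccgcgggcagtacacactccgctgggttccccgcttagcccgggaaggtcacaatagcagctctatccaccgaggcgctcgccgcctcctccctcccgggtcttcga
The Hoxd1 peak is the nearest to any member start site that both libraries held, and the bases of it that lie upstream of the start are shown.
Upstream of the Hoxd1 start (chr2:74762876-74762979): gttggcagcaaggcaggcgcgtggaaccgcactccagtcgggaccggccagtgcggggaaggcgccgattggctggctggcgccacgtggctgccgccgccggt

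The promoter was open in both libraries at 2 of the 9 HoxD genes, Hoxd3 and Hoxd1. Replicate 1 held a peak with its midpoint within 1 kb of a start site at 6 of 9 genes (Hoxd13, Hoxd10, Hoxd9, Hoxd3, Hoxd4 and Hoxd1), where 69.9% of protein-coding genes had one. Replicate 2 held one at 2 of 9, where 65.7% of protein-coding genes had one, and for shared peaks the 2 of 9 stood beside 64.6%. Hoxd12, Hoxd11 and Hoxd8 had no promoter peak in either library. Counted by start site, 9 of the 14 had a peak in replicate 1 and 2 of the 14 in replicate 2. Hotspots with any base inside the same window gave the same 6, 2 and 2 genes, beside 70.5%, 66.1% and 65.4% of protein-coding genes in replicate 1, replicate 2 and both. The share of HoxD genes with a promoter peak was thus near the background in replicate 1 and below it in replicate 2, with no test of either.

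**Figure D1:**
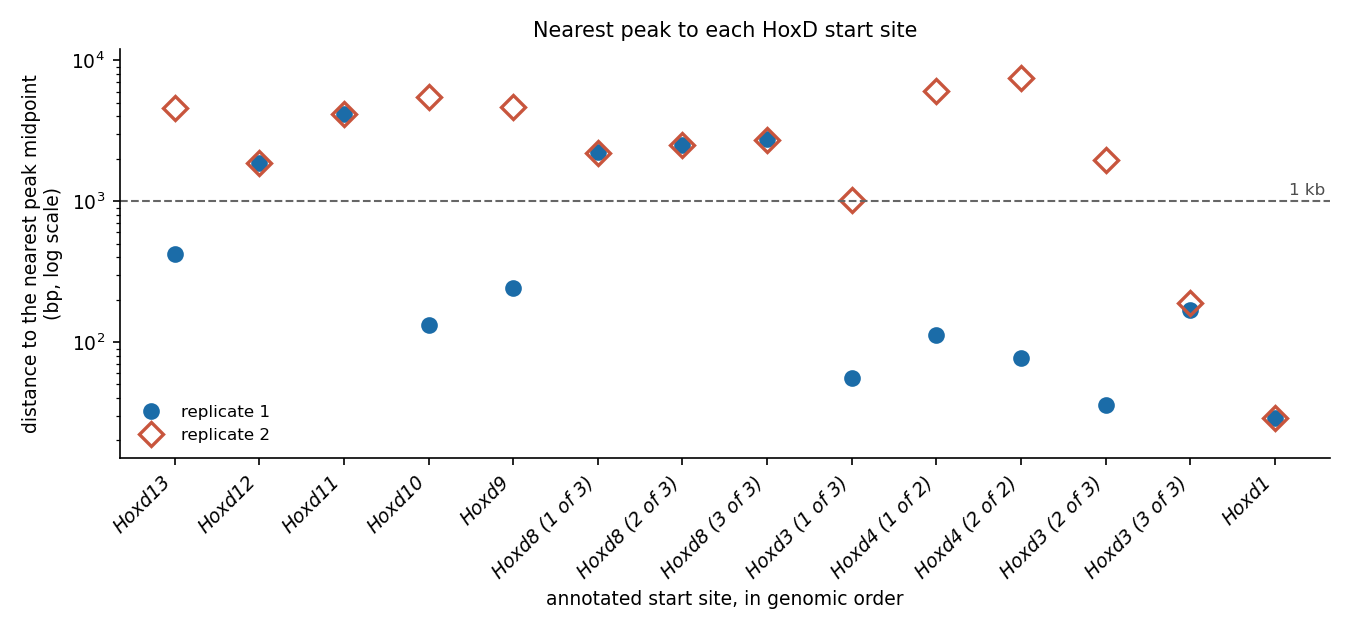
Distance in bp, on a log scale, from each of the 14 annotated HoxD start sites in genomic order to the midpoint of the nearest peak, with filled circles for replicate 1, open diamonds for replicate 2 and a dashed line at 1 kb. The markers coincide or nearly so at Hoxd12, Hoxd11, Hoxd8, the third Hoxd3 start and Hoxd1, and at the other starts the replicate 2 peak lies farther away.

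At the Hoxd13 end, Hoxd13, which patterns digits and genitalia, had a replicate 1 peak 421 bp downstream of its start (chr2:74668656-74668805, in a coding exon) with a score of 63, at the 69.3 percentile. The nearest replicate 2 peak lay 4579 bp upstream with a score of 65. The hotspot under the replicate 1 peak was 63 bp wide with a −log10 q of 1.66, near the lower end of the deposited values, so Hoxd13 rested on 1 narrow call in 1 library. Hoxd12, a limb patterning gene, had no peak nearer than 1862 bp upstream, where the same position scored 88 in replicate 1 and 58 in replicate 2. Hoxd11, which shapes the forearm and the kidney, had its nearest peak 4148 bp downstream, with scores of 92 and 64. At both genes the nearest site was therefore a shared one that belongs to the stretch between genes.

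Hoxd10 and Hoxd9, which act in lumbar motor neurons and the hindlimb, each had 1 promoter peak, in replicate 1 only. The Hoxd10 peak lay 133 bp upstream of the start (chr2:74691716-74691865) with a score of 79, at the 81.2 percentile, and its hotspot was 233 bp wide with a −log10 q of 5.70. The Hoxd9 peak lay 244 bp downstream (chr2:74697896-74698045, in a UTR exon) with a score of 67, at the 72.8 percentile, over a hotspot with a −log10 q of 3.19. Replicate 2 had its nearest peak 5453 bp from the Hoxd10 start and 4684 bp from the Hoxd9 start. Neither replicate 1 peak was weak within its own library, and neither had a counterpart in the other. Hoxd8, a gene of the trunk, has 3 start sites within 1 kb of one another, and its nearest peak lay 2224 bp upstream of the first in replicate 1, with a score of 96, and 2204 bp upstream in replicate 2, with a score of 91. It was again the shared site between 2 genes and not a promoter site.

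Hoxd3, which patterns the first neck vertebrae, has 3 annotated starts, and their calls differed. At the first (74711927) replicate 1 had a peak 56 bp upstream with a score of 72, whereas the nearest replicate 2 peak lay 1024 bp downstream with a score of 26. At the second (74736515) replicate 1 had 5 peaks within 1 kb, with a highest score of 92, and replicate 2 had none nearer than 1964 bp. At the third (74739619) both libraries had 2 shared peaks. One lay 168 bp upstream in replicate 1 (score 77, 80.0 percentile) and 188 bp upstream in replicate 2 (score 36, 62.0 percentile), and the other 848 and 828 bp upstream (scores 74 and 33). The shared call of Hoxd3 therefore came from the third start alone. In replicate 1 both of its peaks lay in a 1222 bp hotspot at the cap of 100. In replicate 2 the hotspot under the nearer peak was 107 bp wide with a −log10 q of 1.66, as low as that at Hoxd13. The one under the farther peak was 234 bp wide with a −log10 q of 2.49. These 848 and 828 bp were also close to the limit of the promoter window. The peaks nearest to that limit lay 863 bp from a Hoxd4 start on the inside, in replicate 1, and 1011 bp from the Hoxd1 start (replicate 1) and 1024 bp from the first Hoxd3 start (replicate 2) on the outside.

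Hoxd4, whose expression ends at a boundary in the caudal hindbrain, had peaks in one library and none in the other. Replicate 1 held 11 peaks in the body of Hoxd4, with scores from 39 to 88, and hotspots covered 31.1% of it. Replicate 2 held no peak and no hotspot in it. At the first start (74721978) the nearest replicate 1 peak lay 113 bp downstream with a score of 48. At the second (74727074) it lay 77 bp downstream with a score of 88, at the 86.0 percentile, inside a 915 bp hotspot at the cap of 100 that is wider than 93.5% of the hotspots of that library. The nearest replicate 2 peaks lay 6027 and 7477 bp from the 2 starts, the greatest distances of any member in that library. Mir10b, a microRNA gene between the 2 Hoxd4 starts, had 3 replicate 1 peaks within 1 kb and none of replicate 2.

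Hoxd1, which acts in pain-sensing neurons, was the member whose start both libraries marked at the same base pairs. The peak (chr2:74762876-74763025) has its midpoint 29 bp upstream of the start and scored 82 in replicate 1, at the 82.9 percentile, and 48 in replicate 2, at the 75.3 percentile. It was the single member start covered by a hotspot in both libraries, one of 475 bp at the cap in replicate 1 and one of 212 bp with a −log10 q of 3.01 in replicate 2. Replicate 1 also had peaks 809 bp upstream (score 33) and in a coding exon (score 29), neither of them shared.

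Starts with and without a promoter peak overlapped in CpG content. Within 500 bp of the start, the ratio of observed to expected CpG was 0.91 at Hoxd13 and at Hoxd11, 0.58 at Hoxd12, 0.64 at Hoxd10 and 0.79 at Hoxd9. The 3 Hoxd8 starts had 0.73, 0.92 and 1.00 and no peak within 1 kb, whereas the third Hoxd3 start, with 2 shared peaks, had 0.24. Hoxd1 had 0.80. The median over the 14 member starts was 0.72, against 0.56 over 41525 protein-coding starts with quartiles of 0.23 and 0.77.

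The interior was dense in peaks and uneven along its length. It held 58 peaks in replicate 1 and 23 in replicate 2, or 6.13 and 2.43 per 10 kb, against 0.97 and 0.55 per 10 kb over the assembled chromosomes. Hotspots numbered 43 and 14 and covered 22.0% and 8.38% of it, against 2.99% and 1.54% of the genome. From Hoxd13 to the last Hoxd8 start, a stretch of 36.8 kb, there were 6 replicate 1 peaks, and hotspots covered 3.63%. In the remaining 57.8 kb to Hoxd1 there were 52, and hotspots covered 33.8%. Replicate 2 had 3 peaks (2.54% covered) in the first stretch and 20 (12.1% covered) in the second. Both libraries thus placed most sites on the Hoxd3 to Hoxd1 side, which was not tested.

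**Figure D2:**
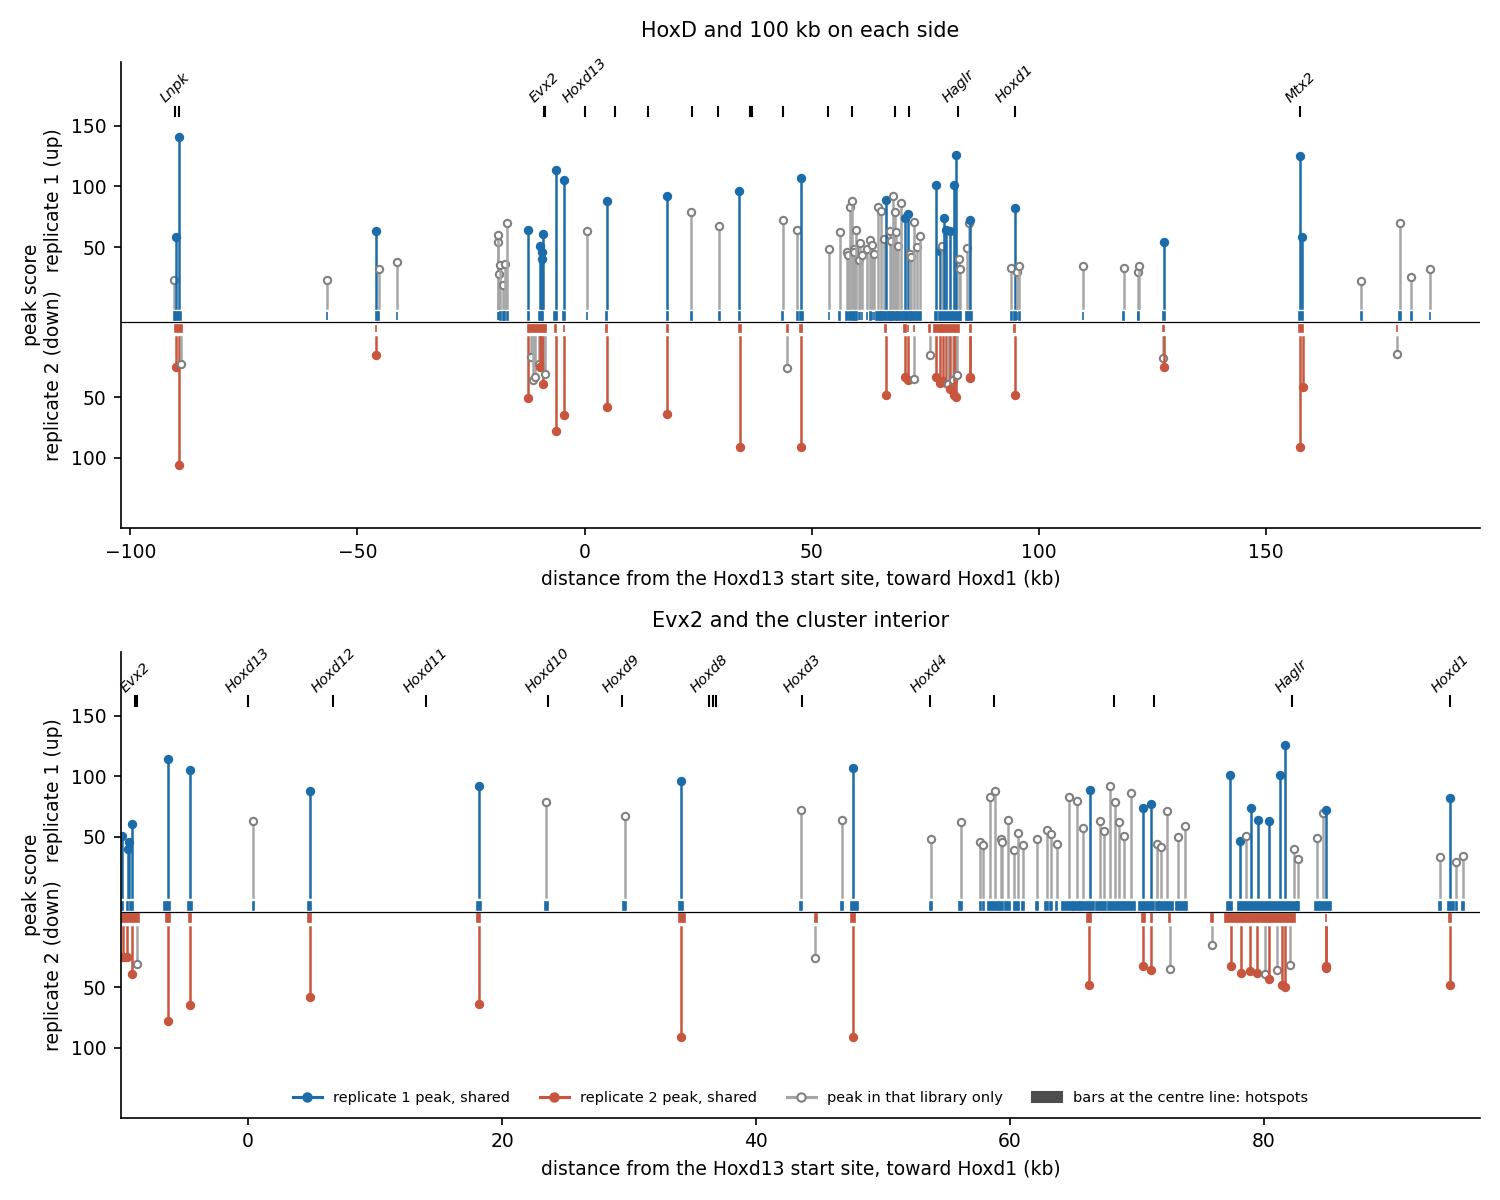
Peak scores along the HoxD window against distance in kb from the Hoxd13 start, with replicate 1 drawn upward and replicate 2 downward, filled markers for shared peaks, open grey markers for peaks of 1 library, bars at the centre line for hotspots and ticks at the top for start sites. The upper plot spans 294.7 kb with the flanks and the lower one Evx2 and the interior, where isolated shared peaks on the left give way to runs of peaks between Hoxd4 and Haglr.

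Interval by interval, the Hoxd13 to Hoxd8 stretch had at most 2 peaks between neighbouring starts. Between Hoxd13 and Hoxd12 (6.70 kb) there were 2 in replicate 1 and 1 in replicate 2, between Hoxd11 and Hoxd10 (9.60 kb) 2 and 1, and between Hoxd9 and Hoxd8 2 and 1. Hoxd12 to Hoxd11 (7.31 kb) and Hoxd10 to Hoxd9 (5.80 kb) had none in either library. Sites and empty stretches alternated from one gene to the next, and in each stretch with sites exactly 1 was shared.

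Past the first Hoxd4 start peaks were more numerous, mainly in replicate 1. Between the first and second Hoxd4 starts (5.10 kb) replicate 1 had 5 peaks and replicate 2 none. Between the second Hoxd4 start and the second Hoxd3 start (9.44 kb) replicate 1 had 18 peaks with a median spacing of 500 bp, and its hotspots covered 61.0% of the stretch, while replicate 2 had 1 peak and 3.63% covered. The single replicate 2 peak (chr2:74734476-74734625, score 48) overlapped a replicate 1 peak (score 89), the Hoxd3 intron site whose sequence is given above. Between the third Hoxd3 start and Hoxd1 (23.4 kb) the counts were 20 and 15, of which 9 and 10 were shared. From the second Hoxd3 start to the third (3.10 kb) they were 6 and 2, with 2 shared in each. The counts of the libraries were farthest apart, 18 against 1, in the 9.44 kb after the second Hoxd4 start.

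**Figure D3:**
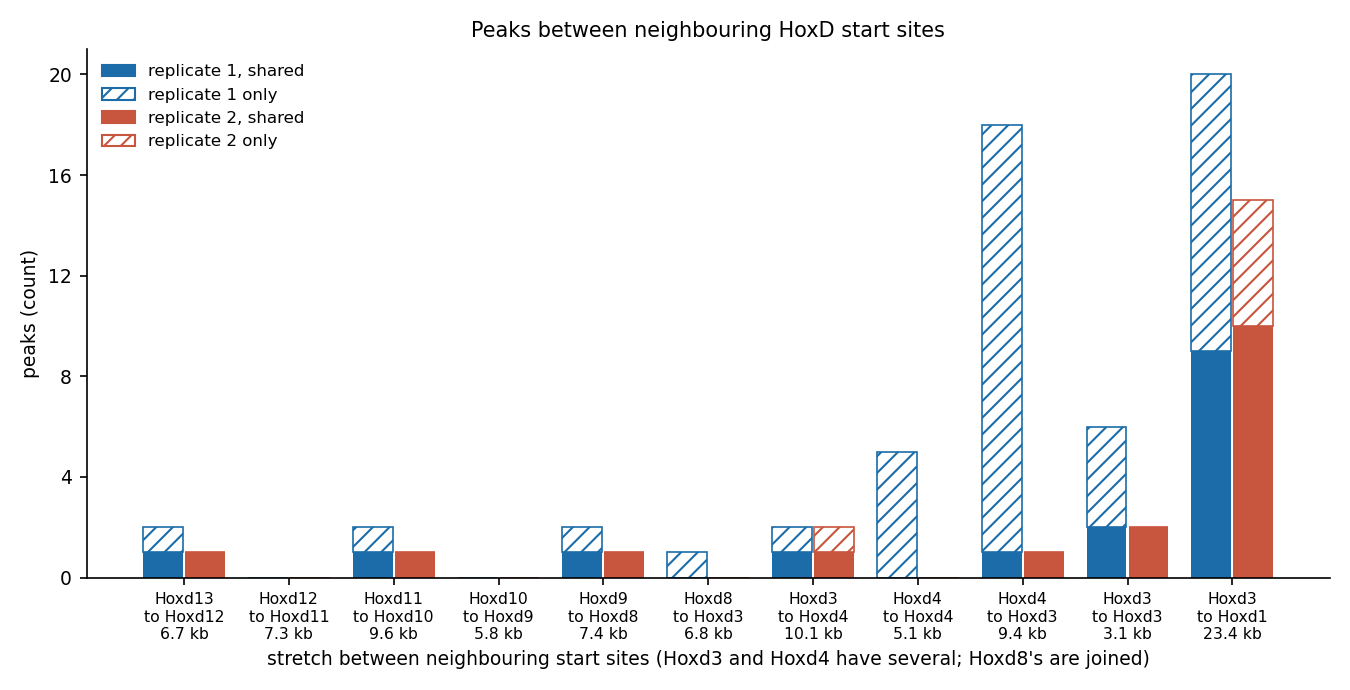
Number of peaks between neighbouring HoxD start sites, in genomic order with the length of each stretch in kb, as stacked bars of shared peaks (filled) and peaks of that library alone (hatched), replicate 1 left and replicate 2 right. The tallest hatched bar is the 17 replicate 1 peaks between Hoxd4 and Hoxd3 with no counterpart, and the 23.4 kb before Hoxd1 holds most shared peaks.

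Of the 58 interior peaks in replicate 1, 16 overlapped a replicate 2 peak, a share of 27.6% (95% Wilson interval 17.8 to 40.2%), where 42.4% of all replicate 1 peaks did. Of the 23 in replicate 2, 17 overlapped, a share of 73.9% (53.5 to 87.5%), where 77.1% of all replicate 2 peaks did. Of the interior hotspots, 11 of 43 in replicate 1 and 12 of 14 in replicate 2 were shared, beside 41.6% and 84.8% of all hotspots. The replicate 2 shares were near the background, and the upper end of the replicate 1 interval for peaks lay below it. These intervals cover counting error only, and neighbouring peaks are not independent of one another. The 42 replicate 1 peaks without a counterpart had scores from 32 to 92 and a median at the 61.5 percentile, so they were not the weakest of that library, against the 84.5 percentile for the 16 shared ones. In 18 of those 42 the midpoint lay within 1 kb of a member start.

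Most shared sites stood away from the member start sites. Of the 16 shared interior peaks, 3 lay within 1 kb of a member start and 13 farther, up to 10372 bp. Some of the 13 lay within 1 kb of a non-coding gene's start, 1 at Hoxd3os1, 2 at Haglr and 1 at Gm14424. By annotation 5 of the 16 were in introns, 5 in exons of non-coding genes, 3 between genes, 2 in UTR exons and 1 in a coding exon. The 42 that replicate 1 held alone were in introns in 25 cases. The midpoints of a shared pair were 20 bp apart at the median and at most 100 bp. Over the 16 pairs the scores of the libraries had a Spearman correlation of 0.53, and over all 29 pairs of the window 0.77, given as a description since the pairs come from the same 2 libraries.

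**Figure D4:**
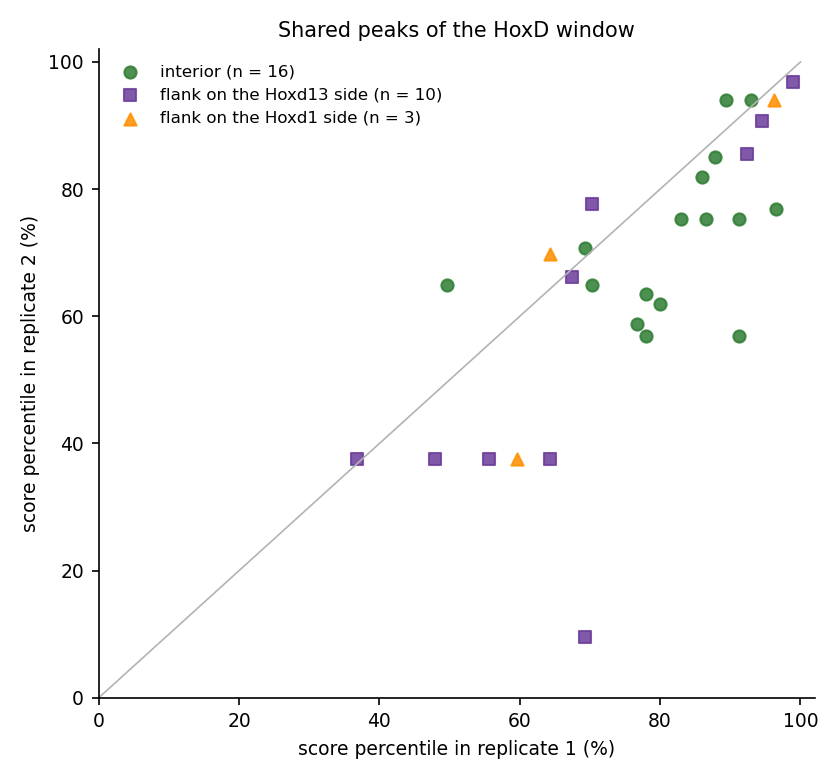
Score percentile in replicate 1 (x axis, %) against that in replicate 2 (y axis, %) for the 29 shared peaks of the HoxD window, with circles for the interior, squares for the flank on the Hoxd13 side, triangles for the flank on the Hoxd1 side and a line of equal percentiles. Most interior peaks fall below the line, and the 2 interior peaks highest in replicate 2 sit at the 94.0 percentile there.

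The isolated sites between Hoxd13 and Hoxd8, and another inside Hoxd3, ranked high in both libraries. The site between Hoxd13 and Hoxd12 scored 88 in replicate 1 and 58 in replicate 2 (86.0 and 82.0 percentile). The site between Hoxd11 and Hoxd10, in an intron of the non-coding transcript Gm28309, scored 92 and 64 (87.8 and 85.1). The site between Hoxd9 and Hoxd8 scored 96 and 91 (89.4 and 94.0), and replicate 2 ranked it higher than replicate 1 did. All 3 had hotspots at the cap in replicate 1, of 255, 277 and 309 bp. In replicate 2 the Hoxd13 to Hoxd12 site had a −log10 q of 4.19 and the other sites were at the cap. The site past the first Hoxd3 start, in an exon of the antisense gene Hoxd3os1 and 4044 bp downstream of that start, lay 25 bp (replicate 1) and 45 bp (replicate 2) from an annotated Hoxd3os1 start. It scored 107 and 91 (92.9 and 94.0), and its hotspots were at the cap in both. While the promoters of Hoxd12, Hoxd11 and Hoxd8 had no peak, these sites 1862 to 4148 bp from a member start were found in both libraries.

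These 4 sites, whose sequences stand above, all hold the CTCF core with at most 1 changed letter, a search added after the data were seen. The 2 shared peaks between Evx2 and Hoxd13, which also ranked high in both libraries, hold no such match. The exact core occurred in 2 of the 58 replicate 1 interior peaks, the site between Hoxd13 and Hoxd12 (minus strand, chr2:74673178-74673189) and the Hoxd3os1 site (plus strand, chr2:74715921-74715932), where 5.17% of all replicate 1 peaks and 9.36% of shared ones hold it. With 1 change allowed 7 of 58 peaks hold it, where 23.2% of all replicate 1 peaks do, and among the 16 shared interior peaks 4 do, where 32.1% of shared peaks do. In replicate 2 the exact core occurred in 2 of the 23 interior peaks, at the same 2 sites, where 7.52% of all replicate 2 peaks hold it, and the core with 1 change in 5, where 27.1% do. The fifth is the replicate 2 peak at chr2:74734476-74734625, in the Hoxd3 intron. Of the 16 shared interior peaks 2 hold the exact core. Over all 58 replicate 1 peaks the share with a match thus lay below the background, and for the exact core in shared and in replicate 2 peaks it lay above it, on counts of 2 and with no test. The match at the Hoxd13 to Hoxd12 site was on the minus strand and those at the other 3 sites on the plus strand. A match to these letters is no evidence of binding.

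Other motifs were searched on both strands in the same 58 peaks. HOX-PBX (TGATNNAT) occurred in 5, where 8.16% of all replicate 1 peaks hold it, the MEIS motif TGACAG in 5 (14.2%), the homeodomain core TAATTA in 1 (6.94%), the SP/KLF motif GGGCGG in 8 (8.91%) and the E-box CAGCTG in 8 (15.4%). In the 23 replicate 2 peaks HOX-PBX occurred in 4 (6.73% of all), SP/KLF in 5 (12.4%), MEIS in 3 (12.2%) and the E-box in 3 (12.8%). Overlapping replicate 2 peaks at Gm14424 hold the same HOX-PBX and SP/KLF matches. The 16 shared peaks gave 3 for HOX-PBX (6.30% of all shared), 3 for SP/KLF (14.9%), 3 for the E-box (14.8%) and 2 for MEIS (12.8%). The homeodomain core occurred in neither set, and no test was made. HOX-PBX and homeodomain matches can overlap each other, as can those of 1 motif on both strands. Neither the NFI palindrome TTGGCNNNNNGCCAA nor the REST motif TTCAGCACCNNGGACAG occurred. Of all replicate 1 peaks 0.182% hold the NFI palindrome and 0.0478% the REST motif. At shares this low, absence from 58 peaks says little. For retinoic acid receptors, which respond to a vitamin A derivative known to set Hox expression in the hindbrain, direct repeats of the receptor's recognition unit were searched by name. The repeat with a spacer of 2 bases (DR2) occurred in none of the 58, where 0.122% of all replicate 1 peaks hold it. The one with 5 bases (DR5) occurred in 2, where 0.103% of all replicate 1 peaks hold it. Both DR5 matches lay downstream of the third Hoxd3 start in intron peaks of replicate 1 that replicate 2 did not hold, one scoring 44 and the other 50. They are printed with the repeated units in capitals, the first read on the minus strand and the second on the plus strand.
DR5 of chr2:74739842-74739858: AGTTCAcactgAGGTGA
DR5 of chr2:74741540-74741556: GGTTCAagcagAGTTCA

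The broadest accessible stretch of the interior lay over the end of Hoxd3 and the whole of Haglr, a long non-coding gene on the minus strand between Hoxd3 and Hoxd1. In replicate 1 it was 1 hotspot of 4626 bp (chr2:74746264-74750889) and in replicate 2 one of 3737 bp (chr2:74747023-74750759), each at the cap, and replicate 1 covered all of the replicate 2 hotspot. In each library it held 8 peaks. By width they lay at the 99.987 (replicate 1) and 99.985 (replicate 2) percentiles of the hotspots of their libraries. The Haglr body (2085 bp) was covered at 100% in both libraries. Its 3 shared peaks scored 63, 101 and 126 in replicate 1 and 43, 48 and 50 in replicate 2, the last being the Haglr exon peak with the sequence above, at the 96.5 and 76.9 percentiles. Within 1 kb of the Haglr start lay 4 replicate 1 peaks and 3 replicate 2 peaks. Of these 2 were shared, and the Haglr exon peak was one of them. In contrast with Hoxd4, the Haglr stretch had its width and its number of peaks in both libraries.

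The body of Hoxd3 itself, 36.3 kb long on the annotation because of its first start, held 41 replicate 1 peaks and 11 replicate 2 peaks, 8 of them shared in each, with scores up to 107 and 91. It overlaps Hoxd4, Hoxd3os1 and the annotated gene Gm28230, so these counts are not independent of theirs. A shared peak in a Hoxd3 intron at chr2:74745576-74745725 scored 101 in replicate 1 and 33 in replicate 2 (91.2 and 57.0 percentile), and its replicate 2 hotspot was 1739 bp wide. The 2 shared peaks in UTR exons at the end of Hoxd3 scored 74 and 64 in replicate 1 and 37 and 38 in replicate 2. Between Haglr and Hoxd1, the non-coding gene Gm14424 had a shared peak of 72 in replicate 1 that overlapped 2 replicate 2 peaks of 33 and 34, which is why the shared counts are 16 and 17. From there to the peaks just before Hoxd1, neither library held a peak.

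The flank on the Hoxd13 side held 21 replicate 1 peaks, 10 of them shared, and 15 replicate 2 peaks, 9 of them shared. Next to Hoxd13 lies Evx2, a homeobox gene of spinal interneurons and limbs that is not a Hox gene. Its body had 5 replicate 1 peaks with scores from 40 to 64, all shared, and 8 replicate 2 peaks with scores from 17 to 51, of which 4 were shared. Hotspots covered 10.5% of Evx2 in replicate 1 and 55.8% in replicate 2, where a single hotspot of 3649 bp at the cap (chr2:74656080-74659728) held 8 peaks. Evx2 was thus broader in replicate 2, the opposite of Hoxd4. Between Evx2 and Hoxd13, 2 shared peaks lay 6339 and 4579 bp upstream of the Hoxd13 start, scoring 114 and 78 (94.5 and 90.6 percentile) and 105 and 65 (92.4 and 85.5 percentile), replicate 1 first. Replicate 1 alone had 7 peaks with scores from 19 to 70 between 17059 and 19159 bp upstream.

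The outermost shared sites were the promoters of the flanking genes Lnpk and Mtx2. The peak at the start of Lnpk, a gene of an endoplasmic reticulum protein, scored 141 and 106 (98.9 and 96.8 percentile), the highest scores of the whole window in both libraries. Its midpoint lay 43 bp from a Lnpk start and 85 bp from the start of the antisense gene 4930445N08Rik. The peak at Mtx2, which encodes a mitochondrial outer membrane protein, scored 125 and 91 (96.3 and 94.0 percentile), at identical positions in both. The flank on the Hoxd1 side held 13 replicate 1 peaks and 5 replicate 2 peaks, or 1.3 and 0.5 per 10 kb, beside the 0.97 and 0.55 of the genome. In each library 3 of them were shared, and of these 2 were at Mtx2. The third shared peak, 32831 bp beyond Hoxd1 and between genes, scored 54 and 25. No member promoter reached the Lnpk or Mtx2 scores in its library. Of the 18 other genes with a start in the window, 10 had a peak within 1 kb in replicate 1, 7 in replicate 2 and 7 a shared one. These genes mix protein-coding, non-coding and pseudogene types, and no share over all genes of such types was counted. Genes with nearby starts, such as Lnpk and 4930445N08Rik, were called through the same peak, so the calls are not independent.

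Set beside the other Hox clusters, HoxD had the fewest genes with a shared peak within 1 kb of a start. A shared promoter peak was found at 5 of 11 HoxA, 4 of 10 HoxB and 3 of 9 HoxC genes, 12 of 30 in all, against 2 of 9 for HoxD, and the difference was not tested. With a window of 2500 bp the counts came to 4 of 9 for HoxD and 14 of 30 for the others, which are close to each other. The share over all protein-coding genes, 64.6% at 1 kb, was not counted at 2500 bp, so these counts have no background. In replicate 1 alone, HoxD had 6 of 9, HoxC 5 of 9, HoxA 8 of 11 and HoxB 10 of 10. In paralogue group 4, Hoxa4, Hoxb4 and Hoxc4 had a shared peak and Hoxd4 had one in replicate 1 alone. In group 3 Hoxd3 and Hoxb3 had one and Hoxa3 did not. In group 10 Hoxa10 and Hoxc10 had one, while Hoxd10 had a peak in replicate 1 alone. No gene of groups 6 to 9 or 11 to 13 had a shared peak in any cluster, and the group 13 genes of all 4 clusters had one in replicate 1 alone. Hoxd13 thus shared its call with Hoxa13, Hoxb13 and Hoxc13, and Hoxd12 and Hoxd11 shared theirs with every other gene of groups 11 and 12.

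Per length, the HoxD interior had the most replicate 1 peaks of the 4 clusters, with 6.13 per 10 kb against 5.75 in HoxA, 3.56 in HoxB and 2.03 in HoxC. In replicate 2 it had 2.43 per 10 kb, between HoxB (2.39) and HoxA (2.63), with 1.06 in HoxC. The ratio of replicate 1 to replicate 2 peaks was 2.52 in HoxD, 2.19 in HoxA, 1.92 in HoxC and 1.49 in HoxB, beside 1.77 over the genome. The share of replicate 1 peaks without a counterpart was 72.4% in HoxD (95% Wilson interval 59.8 to 82.2%), 65.2% in HoxC, 57.6% in HoxA and 54.1% in HoxB, beside 57.6% over the genome. The interval of HoxD overlapped those of HoxA (44.9 to 69.4%), HoxB (41.7 to 66.0%) and HoxC (44.9 to 81.2%), and the differences between clusters were not tested. The contribution of library depth to these shares was not tested.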

How the data were processed

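DNase-seq peak and hotspot lists of 2 hindbrain libraries (1 group) were used. The notes deposited beside the lists say that the authors made 1 list per replicate from filtered mm10 alignments. Aligner and caller, with their versions and thresholds, were not given in the sources used here (only the build was). The deposited peak score is a whole number of at most 150, of unstated scaling, and was compared as a percentile within its library. Each deposited hotspot has a −log10 q-value of at most 100. The lists give no numbers of reads, so depth is unknown and precision is limited to 95% Wilson intervals over peaks, which cover counting error only.

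Peaks on assembled chromosomes were placed by midpoint and hotspots by any base, with GENCODE M21 basic start sites. Sequence came from the GRCm38.p6 RefSeq genome, and every feature ended within its chromosomes. A promoter window is 1 kb on each side of a start, and shared means an overlap of at least 1 bp. No test was made, as there is 1 group. Alternatives changed the window, the placement, the overlap, the score or q-value minimum, the flank and the libraries used. The genes named are the 9 members, the other genes with a start in the window, the other Hox genes and marker genes. The members, lists and motifs were chosen with earlier results of these data known. The comparison with 1 other Hox gene is not reported here. On simulated peaks the promoter script recovered 600 of 600 planted genes. Python 3.11.15, pandas 2.3.3, NumPy 2.4.6, SciPy 1.17.1 and matplotlib 3.10.9 were used.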

Additional observations from a re-analysis of the deposited data

How the results depend on the processing

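Of 56 alternatives over 12 results, 38 left the value within 1.5 times the reported one (for shares, within its interval) and 18 did not, and 14 of the 56 used 1 library alone. Widening the promoter window to 2500 bp gave 4 HoxD genes in place of 2 for shared peaks, for replicate 2 peaks and for shared hotspots. The added genes for shared peaks were Hoxd12 and Hoxd8, through the sites between genes. No share over all protein-coding genes was counted at that window. Hotspots at the q-value cap alone gave 0 HoxD promoters and 5 in place of 11 shared interior hotspots. Peaks at or above the median score left 5 of the 10 shared peaks in the flank on the Hoxd13 side. A flank of 250 kb gave 20 shared peaks on that side and 14 in place of 3 on the Hoxd1 side, where 50 kb gave 1. Allowing 1 changed letter, an alternative chosen after seeing the data, moved the CTCF core from 2 to 7 interior peaks.

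Leaving out a library replaces the shared count by that of the other. The range was 2 to 6 for HoxD genes with a promoter peak and for those with a promoter hotspot, 12 to 23 for the other Hox genes, 23 to 58 for interior peaks and 14 to 43 for interior hotspots. It was 15 to 21 peaks for the flank on the Hoxd13 side and 5 to 13 for that on the Hoxd1 side. The higher value came from replicate 1 in each case. No paired analysis was possible because there was 1 group. Unknown depth limits every statement that a site was found in 1 library only.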
